A study of Homo sapiens with 6 samples.

Results

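The mitochondrial ribosomal protein genes are the nuclear genes whose symbols start with MRPL (large subunit) or MRPS (small subunit) followed by a number and, in some, a letter A to C. The rule used the symbol and no measured value, and it took 78 genes of the 56794 named genes in the table. The cells were HEK293, a line derived from human embryonic kidney, and the RNA libraries comprised 3 of a CASP8AP2 mutant and 3 of its parental line. The mutant carries a CRISPR deletion in CASP8AP2 and, like the parental line, expresses luciferase. CASP8AP2 encodes a large nuclear protein that takes part in the processing of histone transcripts, and the study concerned recombinant protein yield and arrest in G0/G1. Whether the mutant line was 1 clone or a pool of edited cells, and where the deletion lies, is not given in the sources used here.

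Mitochondria have a ribosome of their own, which makes the few membrane proteins of the respiratory chain and ATP synthase that mitochondrial DNA encodes. Its RNA comes from mitochondrial DNA, while each of its proteins is made in the cytosol from a nuclear gene and imported. Some of these proteins have counterparts in the bacterial ribosome, and others were added during the evolution of mitochondria. A mitochondrial ribosome needs every core protein in fixed proportion, and the genes lie scattered over the genome, here on 21 chromosomes.

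Values below are group means of a length-scaled abundance from the authors' deposited table, summed over the transcripts of a gene after the authors' added 1 was taken off each. Log2 ratios set the mutant over the parental gene sum, each with 1 added, which understates the change of low genes. Each p-value belongs to a gene's most abundant transcript unless a transcript is named, and comes from the authors' deposited table. Group means were the values given, so no error between replicates can be shown. The labels do not state separate cultures for the replicates, so p-values measure the spread between these libraries, which may be technical. The gene sums span all 3 libraries of a group, and which libraries lay high or low within a group cannot be read from them.

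Ordered by depth, since replicate numbers could not be matched to them, the estimated reads on transcripts were 57500000, 15010000 and 13300000 in the mutant libraries. Parental libraries had 15310000, 11600000 and 9186000. In the shallowest mutant library this gives an estimated 43.3 to 1945 reads on the most abundant transcript of a mitochondrial ribosomal protein gene, with a median of 379. In the shallowest parental library the range is 39.2 to 1076, with a median of 319. The summed abundance of CASP8AP2 was 15.7 in the mutant libraries, against 15.9 in the parental libraries, and the smallest p over its 6 transcripts in the authors' deposited table was 0.142, so its RNA level does not check the labels. Markers of HEK293 cells, including vimentin (530 in the mutant libraries, against 425 in the parental libraries) and KRT18 (51.8, against 57.7), were all measured. KRT8 held 37.3 in the mutant libraries, against 70.6 in the parental libraries (log2 ratio -0.90; p-value 0.0178 in the authors' deposited table), and PAX2 held 3.08, against 1.80. The neurofilament gene NEFM held 0.0690 in the mutant libraries, against 8.63 in the parental libraries (p-value 0.00690 in the authors' deposited table), and NEFL held 434, against 35.7 (p-value 0.0209 there). The part of these marker differences in the results was not tested. Of 8 markers of blood, endothelium, fibroblasts, hepatocytes and astrocytes, 7 lay below an abundance of 1. The eighth was COL1A1, a collagen gene, at 5.82 in the mutant libraries, against 2.17 in the parental libraries (p-value 0.0148 in the authors' deposited table). CDH5, an endothelial gene among the 7, held 0.0138 in the mutant libraries and was at or near 0 in the parental libraries (p-value 0.0418 in the authors' deposited table). Their part in the results was not tested.

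Short promoter windows show what many of these genes share apart from their names. RefSeq windows on GRCh38.p14, from 250 bases before to 50 bases after the start of the gene, were at hand for 69 of the 78 genes. They were searched on both strands for the ETS core CCGGAAG, a letter pattern bound by GABPA and other ETS factors, and for the YY1 core AAGATGGC, bound by the zinc finger protein YY1. The stretches before the starts of MRPL38 and MRPL51 are printed because these genes lay near opposite ends of the log2 ratios. Starts in the promoter passages are RefSeq starts. In GENCODE, the source of the gene positions given below, both genes begin further upstream, so the printed stretches fall inside those gene spans. Capitals mark the ETS core, which reads CTTCCGG when it lies on the other strand. Both run 5′ to 3′ on the minus strand, at chr17:75904885-75905134 for MRPL38 and chr12:6493263-6493512 for MRPL51.
MRPL38: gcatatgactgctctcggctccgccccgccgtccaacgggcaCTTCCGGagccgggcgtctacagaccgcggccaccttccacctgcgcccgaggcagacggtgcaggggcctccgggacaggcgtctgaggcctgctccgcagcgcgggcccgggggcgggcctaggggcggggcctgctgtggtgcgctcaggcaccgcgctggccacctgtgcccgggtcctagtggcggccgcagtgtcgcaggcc
MRPL51: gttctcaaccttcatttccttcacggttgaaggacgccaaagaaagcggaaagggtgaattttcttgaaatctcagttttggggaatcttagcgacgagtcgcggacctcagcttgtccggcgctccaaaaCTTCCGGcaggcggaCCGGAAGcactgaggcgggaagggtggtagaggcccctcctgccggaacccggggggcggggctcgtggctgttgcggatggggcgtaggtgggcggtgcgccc

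The YY1 core, whose letters hold ATG, lay just after the start in some genes, and its overlap with coding starts was not tested. In 15 of the 69 genes (21.7%) it stood on the gene's own strand within the 50 bases from the start, as it did in 3.26% of 10029 measured genes and 1.39% of all 27305 windows. The following 24-base sites, with the core in capitals, come from MRPL38 (chr17:75904863-75904886, minus strand), MRPS7 (chr17:75261890-75261913, plus strand), MRPS10 (chr6:42217837-42217860, minus strand), MRPS18B (chr6:30617855-30617878, plus strand) and MRPL51 (chr12:6493226-6493249, minus strand). They are shown because the same core stood at genes with log2 ratios on both sides of 0.
MRPL38: ccggagggAAGATGGCggcgccct
MRPS7: ggccagccAAGATGGCtgcccccg
MRPS10: ggaccggcAAGATGGCggcgcgga
MRPS18B: cgtacgtcAAGATGGCggcgtctg
MRPL51: taaggcccAAGATGGCtgtcttcg

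For the ETS and YY1 cores the median log2 ratios of genes with and without the letters differed by less than 0.1, and for NRF1 half-sites they differed by more. The 15 genes with the YY1 core after the start had a median log2 ratio of -0.24, with 9 lower and 6 higher in the mutant libraries and a range of -0.90 to 0.87. The ETS core was present in 29 of 69 windows (42.0%), against 19.4% of measured genes and 10.7% of all windows. Genes with it had a median log2 ratio of -0.20, and the 40 without it -0.23. The YY1 core on either strand was in 20 windows (29.0%), against 5.51% of measured genes and 3.03% of all windows, with a median log2 ratio of -0.26 where present and -0.17 where absent. The paired half-sites of the factor NRF1, searched in the same way, stood in 8 windows (11.6%), against 11.9% of measured genes and 6.28% of all windows. The 8 genes with them had a median log2 ratio of 0.00, with 4 lower in the mutant libraries, and the 61 without them -0.23, with 43 lower. These differences were not tested. A match of letters is a description and not a binding site.

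Most mitochondrial ribosomal protein genes lay somewhat lower in the mutant libraries, with a few well above. Of the 78 genes, 55 were lower and 23 higher in the mutant libraries by the sign of the log2 ratio. The median log2 ratio was -0.22, with quartiles of -0.47 and 0.03, while the median of all 14856 genes with an abundance of at least 1 was -0.01 and 50.6% of them were lower (52.6% of those at an abundance of at least 5). The summed abundance of the 78 genes was 2630 in the mutant libraries, against 2986 in the parental libraries, a ratio of 0.881. In bulk RNA, fewer cells of a kind and less RNA per cell cannot be told apart. All 78 genes passed the abundance minimum. Their levels ran from 6.22 to 115 with a median of 29.8 in the mutant libraries, and from 8.02 to 107 with a median of 32.9 in the parental libraries.

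No mitochondrial ribosomal protein gene passed the adjusted threshold. By the authors' deposited table, with adjusted p under 0.05, none of the 473 transcripts of these genes with a p-value was called, against a background of 0.0221% of all transcripts tested. With 1 transcript per gene and Benjamini-Hochberg adjustment over all measured genes the count was also 0, against a background of 0.0875%. At an unadjusted p under 0.05 in the authors' deposited table, 14 of the 78 genes were lower in the mutant libraries (17.9%), against a background of 8.63% of measured genes and 9.38% of those at an abundance of at least 5. On the higher side 1 of 78 did so (1.28%), against backgrounds of 5.17% and 5.37%. Over single transcripts of these genes, 56 of 473 had an unadjusted p under 0.05 in the authors' deposited table, 35 lower and 21 higher. Over all transcripts tested, with no abundance minimum, the background was 5.79%. Among the most abundant transcripts of measured genes, 13.8% had such a p-value. Shares by direction were not taken over all transcripts. Log2 ratios of -0.5 or less were held by 18 genes (23.1%), against 11.3% of measured genes, and ratios of 0.5 or more by 4 genes (5.13%), against 11.5%. At an unadjusted p under 0.01 in the authors' deposited table, 3 of the 78 genes were lower and 0 higher, against backgrounds of 2.98% and 1.47% of measured genes. With the smallest p over a gene's transcripts, times their number, 10 were lower and 4 higher at 0.05, against backgrounds of 5.27% and 5.28%.

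**Figure D1:**
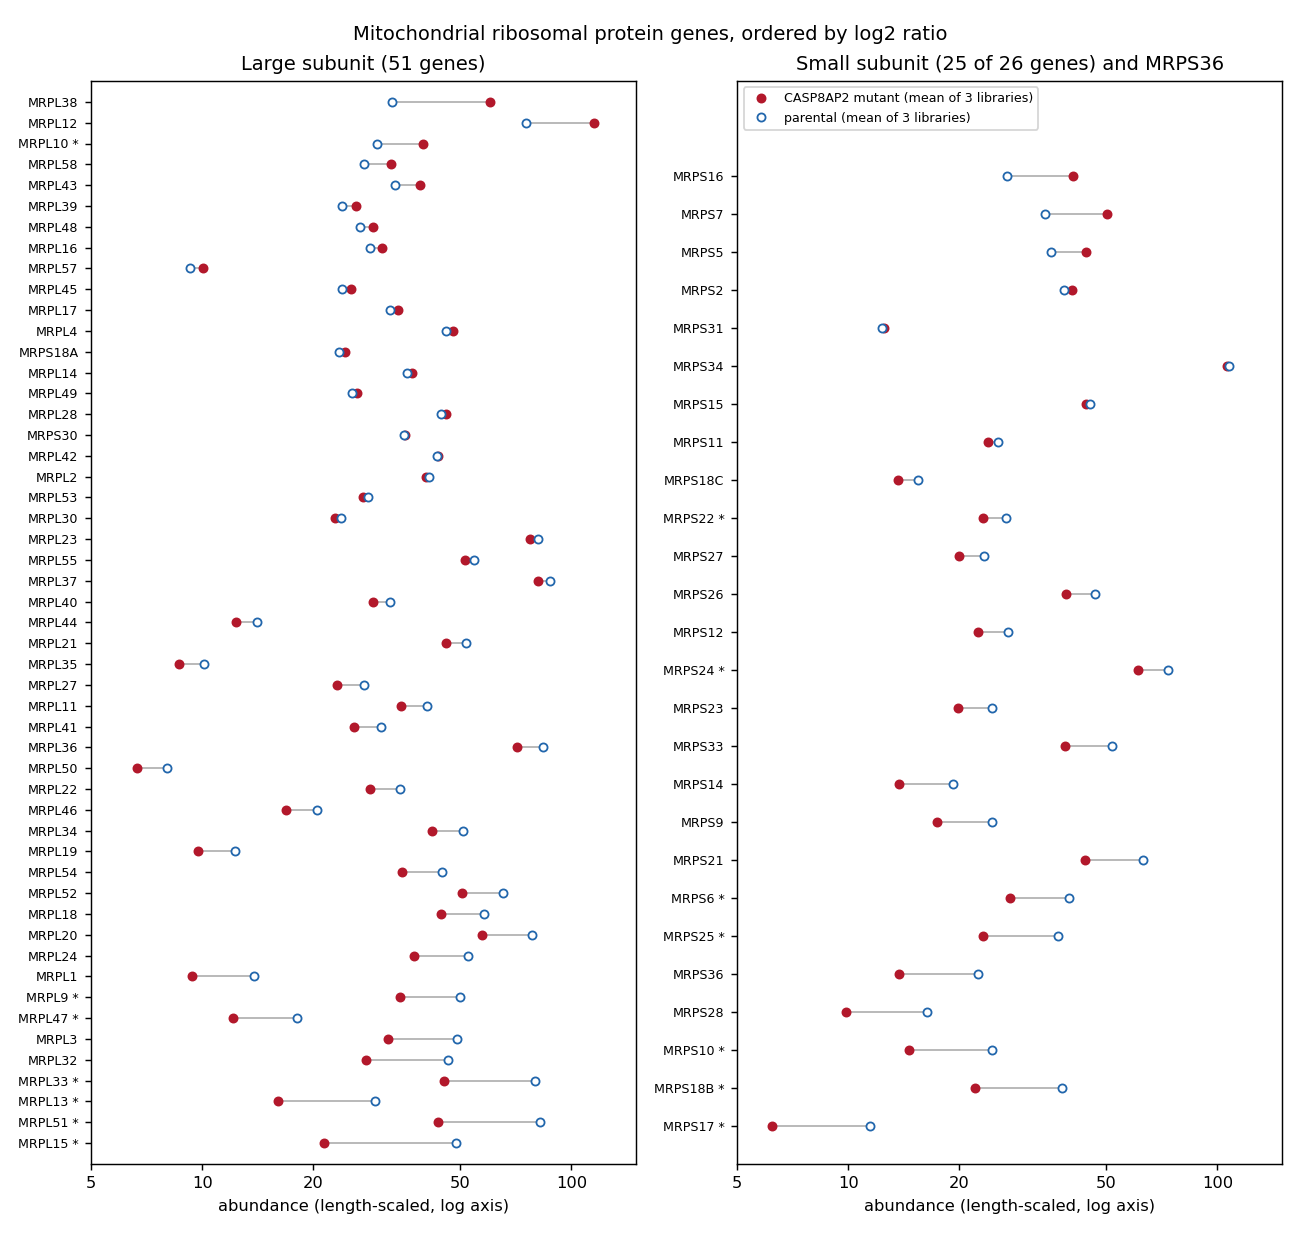
Summed abundance (length-scaled, log axis) of the 51 large-subunit genes and, in the right panel, 25 of the 26 small-subunit genes and MRPS36, ordered by log2 ratio; filled circles are means of 3 CASP8AP2 mutant libraries, open circles means of 3 parental libraries, and an asterisk marks an unadjusted p under 0.05 for the most abundant transcript in the authors' deposited table. MRPL38, at 60.4 in mutant against 32.6 in parental libraries, stands at the top, and MRPL15, at 21.4 against 48.6, at the bottom.

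**Figure D2:**
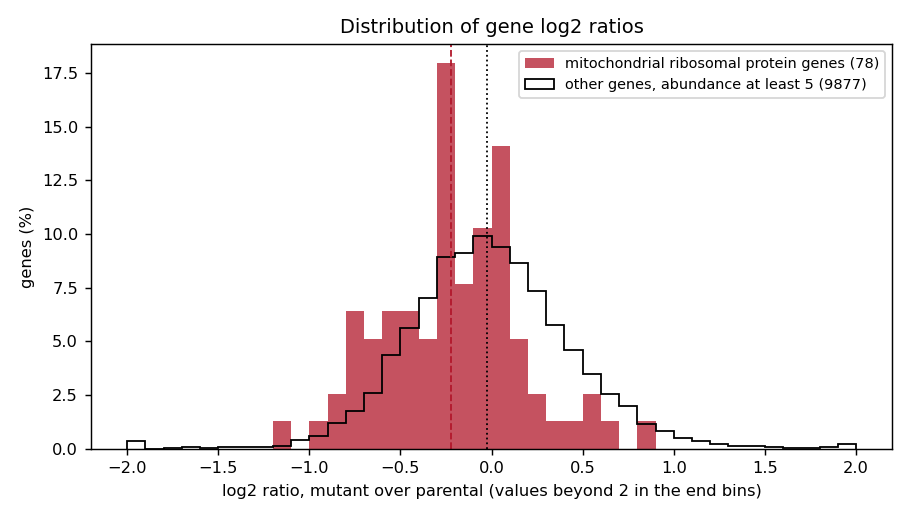
Distribution of log2 ratios, mutant over parental, for the 78 mitochondrial ribosomal protein genes beside other genes at an abundance of at least 5, in percent of each set of genes; vertical lines mark the medians. The median of the 78 genes is -0.22, and their distribution sits to the left of that of the other genes.

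Low ratios came from proteins of both subunits. MRPL15, a large-subunit protein with a bacterial counterpart, had the lowest ratio, with an abundance of 21.4 in the mutant libraries, against 48.6 in the parental libraries (log2 ratio -1.15). In the authors' deposited table the p-value of MRPL15-201 was 0.00376 and its adjusted p-value 0.460. MRPL51, a protein with no bacterial counterpart, stood at 43.6 in the mutant libraries, against 82.3 in the parental libraries (-0.90). Among its transcripts MRPL51-201 held 21.6 in the mutant libraries, against 35.0 in the parental libraries, and MRPL51-203 held 10.3, against 26.2. The authors' deposited table gave them p-values of 0.00602 and 0.000526.

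MRPL13, whose bacterial counterpart is an early assembly protein, lay at 16.1 in the mutant libraries, against 29.4 in the parental libraries (-0.83; p-value 0.0184 in the authors' deposited table). The group means do not show whether single libraries overlapped.

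MRPL33, a small protein near the exit site for transfer RNA, had a pair of main transcripts, both at lower levels, and summed to 45.2 in the mutant libraries, against 79.5 in the parental libraries (-0.80). MRPL33-201 stood at 23.5 in the mutant libraries, against 38.9 in the parental libraries, and MRPL33-202 at 21.1, against 39.1. The authors' deposited table gave p-values of 0.0400 and 0.00892. MRPL32, which is cut by the m-AAA protease before it enters the ribosome, had 27.7 in the mutant libraries, against 46.2 in the parental libraries (-0.72), and its p-value of 0.0509 in the authors' deposited table missed the unadjusted threshold. MRPL9, which has a bacterial counterpart, at 34.4 in the mutant libraries, against 50.1 in the parental libraries, and MRPL47, which sits by the exit tunnel, at 12.1, against 18.1, were the other large-subunit genes with an unadjusted p under 0.05 in the authors' deposited table (0.0370 and 0.0141).

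Small-subunit genes made up 8 of the 14 lower genes. MRPS17, whose bacterial counterpart binds ribosomal RNA early in assembly, was the least abundant of the 78 genes in the mutant libraries, at 6.22, against 11.5 in the parental libraries (-0.79; p-value 0.0131 in the authors' deposited table). MRPS10, whose bacterial counterpart sits in the head of the small subunit, lay at 14.6 in the mutant libraries, against 24.5 in the parental libraries (p-value 0.0430 in the authors' deposited table). MRPS6, whose bacterial counterpart sits on the platform, lay at 27.4 in the mutant libraries, against 39.7 in the parental libraries (p-value 0.0349 in the authors' deposited table). MRPS24, which sits at the messenger RNA entrance, differed less, at 60.8 in the mutant libraries, against 73.3 in the parental libraries (-0.26; p-value 0.0262 in the authors' deposited table). MRPS22, in which recessive mutations cause a human mitochondrial disease, was at 23.1 in the mutant libraries, against 26.7 in the parental libraries (-0.20; p-value 0.0461 in the authors' deposited table).

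Large differences on the higher side were few. MRPL38, of the central protuberance, stood at 60.4 in the mutant libraries, against 32.6 in the parental libraries (log2 ratio 0.87), with a p-value of 0.0587 for MRPL38-201 in the authors' deposited table. Its transcripts with a retained intron, MRPL38-211 (4.32 in the mutant libraries, against 1.84 in the parental libraries) and MRPL38-213 (4.83, against 1.69), had p-values of 0.00398 and 0.0489 in the authors' deposited table. MRPL12, the factor-binding protein of the stalk, was the most abundant of the 78 genes in the mutant libraries, at 115, against 75.5 in the parental libraries (0.60; p-value 0.148 in the authors' deposited table). MRPS16, in which recessive mutations cause a human respiratory chain disease, held 40.7 in the mutant libraries, against 26.9 in the parental libraries (0.58), and MRPS7, a protein of the small-subunit head, held 50.2, against 34.2 (0.54). The authors' deposited table gave p-values of 0.342 and 0.260. For MRPS16 the most abundant transcript gave a log2 ratio of 0.28, and protein-coding transcripts alone gave 0.42.

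The single gene on the higher side with an unadjusted p under 0.05 was MRPL10, which anchors MRPL12 to the ribosome. It held 39.8 in the mutant libraries, against 29.8 in the parental libraries (0.40), and the p-value of MRPL10-202 in the authors' deposited table was 0.0243. MRPS5 at 43.9 in the mutant libraries, against 35.3 in the parental libraries, and MRPL43 at 38.9, against 33.3, followed by log2 ratio (0.31 and 0.22). The most abundant transcripts gave -0.01 for MRPS5 and 0.08 for MRPL43, and protein-coding transcripts alone gave -0.01 and 0.09, so the gene sums of both rested on other transcripts. The most abundant gene in the parental libraries, MRPS34, was nearly level, at 106 in the mutant libraries, against 107 in the parental libraries (-0.02). MRPL37 at 81.4 in the mutant libraries, against 87.8 in the parental libraries, MRPL36 at 71.2, against 83.9, and MRPL23 at 77.3, against 81.1, were also among the most abundant. The 34 genes without values of their own here by the naming rule had log2 ratios between -0.68 and 0.11.

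By subunit, the medians lay on the same side of 0. The 51 large-subunit genes had a median log2 ratio of -0.18, with 33 lower and 18 higher in the mutant libraries, and summed to 1823 in the mutant libraries, against 2046 in the parental libraries. The 26 small-subunit genes had a median of -0.26, with 21 lower and 5 higher, and summed to 793 in the mutant libraries, against 917 in the parental libraries. An unadjusted p under 0.05 in the authors' deposited table was held by 6 lower and 1 higher of the 51 large-subunit genes. Of the 26 small-subunit genes, 8 held one, all lower. Over all measured genes the backgrounds were 8.63% lower and 5.17% higher. MRPS36 keeps its ribosomal name but is now known as a subunit of the 2-oxoglutarate dehydrogenase complex, and stood at 13.7 in the mutant libraries, against 22.4 in the parental libraries (-0.67). The difference between the subunits was not tested, since genes are not replicates.

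Origin was read from the uniform naming of ribosomal proteins, in which MRPS18C keeps the name of the bacterial protein and MRPS18A and MRPS18B have mitochondrial names. A bacterial counterpart here means a shared name, so MRPS18A, MRPS18B and MRPS36 count as without one. The 46 genes with a bacterial counterpart had a median of -0.25 (35 lower, 11 higher) and the 32 without one -0.16 (20 lower, 12 higher). Within the large subunit the 30 genes with a bacterial counterpart had a median of -0.23, and the 21 without one 0.01. Within the small subunit the medians were -0.26 over 16 genes and -0.28 over 10.

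**Figure D3:**
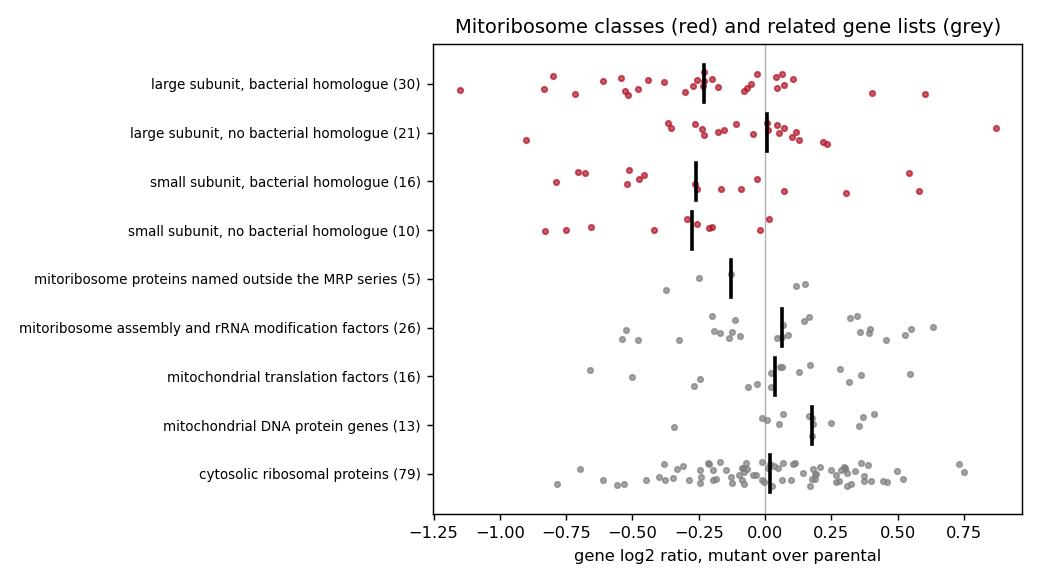
Log2 ratios, mutant over parental, of single genes, with the number of genes in brackets and a black bar at each median. Red marks classes by subunit and by presence of a bacterial counterpart as read from the naming, and grey marks related gene lists. Large-subunit genes without a bacterial counterpart centre at 0.01, and the other red classes centre between -0.28 and -0.23.

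Genes of 1 functional site did not share a direction. At the stalk, where translation factors dock, MRPL12 and MRPL10 lay higher, and MRPL11 at its base lay lower, at 34.6 in the mutant libraries, against 40.7 in the parental libraries. The sum of these 3 genes was 189 in the mutant libraries, against 146 in the parental libraries. At the central protuberance, which joins the subunits, 5 of 7 genes were lower, yet the sums were 254 in the mutant libraries, against 252 in the parental libraries, with MRPL38 on the higher side. MRPL18 held 44.3 in the mutant libraries, against 58.0 in the parental libraries, MRPL46 held 16.9, against 20.5, MRPL27 held 23.2, against 27.4, and MRPL40 held 28.9, against 32.3. MRPL55 held 51.6 in the mutant libraries, against 54.6 in the parental libraries, and MRPL48 held 29.0, against 26.7.

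Around the polypeptide exit tunnel, where new membrane proteins leave, 5 of 8 genes were lower, with sums of 253 in the mutant libraries, against 280 in the parental libraries. MRPL24 held 37.4 in the mutant libraries, against 52.5 in the parental libraries, and MRPL22 held 28.5, against 34.3. MRPL44 held 12.4 in the mutant libraries, against 14.1 in the parental libraries. MRPL45, which anchors the ribosome to the inner membrane, held 25.2 in the mutant libraries, against 24.0 in the parental libraries, MRPL39 held 26.1, against 23.8, and MRPL17 held 34.0, against 32.3. For MRPL17 the log2 ratio was 0.07 by gene sum and -0.13 over protein-coding transcripts alone. MRPL58, which releases peptides from stalled ribosomes, held 32.5 in the mutant libraries, against 27.4 in the parental libraries (0.23). The most abundant transcript of MRPL58 gave a log2 ratio of 0.04, and its protein-coding transcripts gave 0.11.

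The S18 paralogs are 3 genes for versions of 1 bacterial protein. MRPS18B held 22.1 in the mutant libraries, against 37.9 in the parental libraries (-0.75; p-value 0.0401 in the authors' deposited table). MRPS18C held 13.7 in the mutant libraries, against 15.4 in the parental libraries, and MRPS18A, which is built into the large subunit, held 24.4, against 23.5. The other 2 paralogs lay near level beside MRPS18B.

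The most abundant transcript differed between the groups in 6 genes, 1 of them MRPL33, described above. MRPS25 summed to 23.1 in the mutant libraries, against 37.1 in the parental libraries. Its leading transcript was the coding MRPS25-201 in the mutant libraries (8.37 in the mutant libraries, against 13.1 in the parental libraries) and the non-coding MRPS25-207 in the parental libraries (6.25, against 17.2). The authors' deposited table gave p-values of 0.00189 and 0.0497, and both transcripts lay lower in the mutant libraries. Over protein-coding transcripts alone MRPS25 held 14.5 in the mutant libraries, against 16.8 in the parental libraries. The log2 ratio was -0.20 for these transcripts and -0.66 for the gene sum. MRPS14 summed to 13.7 in the mutant libraries, against 19.2 in the parental libraries, and its coding MRPS14-202 held 5.23 in the mutant libraries, against 10.3 in the parental libraries, while MRPS14-201, a target of nonsense-mediated decay, held 8.38, against 8.82. The authors' deposited table gave p-values of 0.0687 and 0.791.

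MRPL48-203 held 6.06 in the mutant libraries, against 3.23 in the parental libraries (p-value 0.0260 in the authors' deposited table), and MRPL48-204 held 4.82, against 5.74. For MRPL55 the leading transcripts were MRPL55-203 (8.78 in the mutant libraries, against 10.5 in the parental libraries) and MRPL55-204 (5.73, against 13.4), and the minor MRPL55-205 held 3.76, against 0.767. The p-value of MRPL55-205 in the authors' deposited table was 0.00183. MRPL53-201 and the intron-retaining MRPL53-204 were close to each other in both groups of libraries, and the gene summed to 27.3 in the mutant libraries, against 28.2 in the parental libraries. MRPL53-201 held 9.40 in the mutant libraries, against 8.38 in the parental libraries, and MRPL53-204 held 9.35, against 9.85.

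The medians of coding transcripts and of transcripts with a retained intron lay on different sides of 0, in these genes and over all genes. Over the 174 protein-coding transcripts of these genes at an abundance of at least 1 the median log2 ratio was -0.21, against -0.02 over such transcripts of all genes. Over the 44 retained-intron transcripts it was 0.07, against 0.17 over those of all genes. Retained-intron transcripts made up 8.37% of the summed abundance of the 78 genes in the mutant libraries, against 6.94% in the parental libraries, and protein-coding transcripts 84.0%, against 86.0%. The directions were the same over all genes, whose total was 496162 in both groups. There retained-intron transcripts summed to 44763 in the mutant libraries, against 41161 in the parental libraries, and protein-coding transcripts to 339290, against 346747.

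The ratios moved with position in the genome. For each gene the median log2 ratio of other genes at an abundance of at least 5 within 5 Mb was taken, a view chosen after values had been seen. Spearman's rho between a gene's ratio and this median was 0.58 across the 78 genes, which share libraries and in part share neighbours. Across 9865 genes the same measure gave 0.47, so the relation was also present in the genome at large. Among the 28 genes whose neighbours had a median below -0.1, 25 were lower in the mutant libraries, and 11 of the 14 lower genes with an unadjusted p under 0.05 in the authors' deposited table were there. Among the 28 genes with a neighbour median above 0.1, 13 were lower and 15 higher, with a median log2 ratio of 0.04. Among the 22 between these limits 17 were lower, with a median of -0.26. Shares of all measured genes within the same limits were not taken, so these counts have no background beside them.

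The 4 genes at the far end of the long arm of chromosome 17 were all higher. MRPL58 (chr17:75012670-75021261, plus strand), MRPS7 (chr17:75261674-75266373, plus strand), MRPL38 (chr17:75898643-75905413, minus strand) and MRPL12 (chr17:81703357-81707526, plus strand) lie there on hg38. From MRPL58 to the chromosome end 112 of 117 other genes were higher in the mutant libraries, with a median log2 ratio of 0.70. Before MRPL58, 252 of 504 were higher, with a median of 0.00. The log2 ratio was 0.23 for MRPL58, against a neighbour median of 0.61, and 0.54 for MRPS7, against 0.63. It was 0.87 for MRPL38, against a neighbour median of 0.64, and 0.60 for MRPL12, against 0.71. What sets the level of this stretch was not tested.

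On chromosome 8 the 3 genes MRPL15, MRPL13 and MRPS28 were lower, and so were most genes around them. The log2 ratio was -1.15 for MRPL15, against a neighbour median of -0.38, -0.83 for MRPL13, against -0.47, and -0.68 for MRPS28, against -0.35. MRPS28, named after its values were seen, held 9.87 in the mutant libraries, against 16.4 in the parental libraries. On chromosome 12 it was -0.90 for MRPL51, against a neighbour median of -0.36. MRPS16 on chromosome 10 stood above its surroundings, with 0.58 against a neighbour median of 0.10, and MRPS6 on chromosome 21 stood below, with -0.52 against 0.21. Chromosomes 1, 3 and 7 held 8, 4 and 4 of the genes, and each of these lay lower in the mutant libraries. The medians over all measured genes of these chromosomes were -0.07, -0.21 and -0.15. On chromosomes 4, 14, 15 and 22 the 2, 1, 2 and 1 genes were also lower. The medians over all measured genes there were 0.14, 0.15, 0.08 and 0.29. Chromosomes 10 and 13 held 2 genes each, all higher, beside medians of 0.10 and 0.07.

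**Figure D4:**
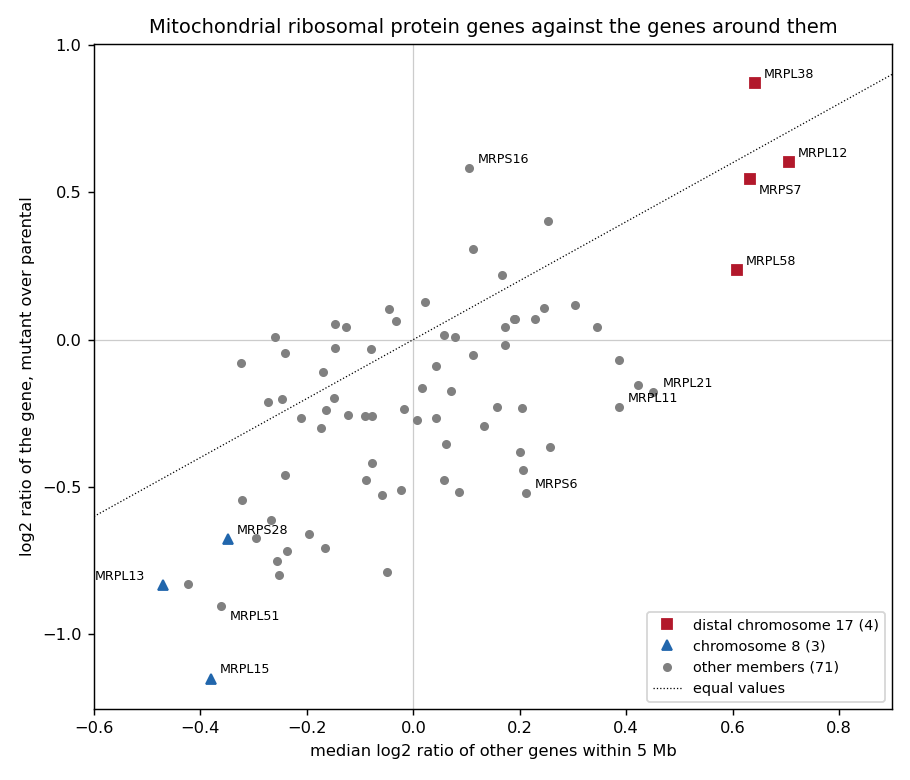
Log2 ratio of each of the 78 genes, mutant over parental, against the median log2 ratio of other genes within 5 Mb; squares are the 4 genes of distal chromosome 17, triangles the 3 on chromosome 8, and the dotted line marks equal values. The squares lie at upper right and the triangles at lower left, and most points fall below the line.

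The ratios also moved with base composition. Spearman's rho between log2 ratio and GC content of the most abundant transcript was 0.39 across the 78 genes and 0.31 across 14723 genes. With GC and length trends over all genes removed, the median of the 78 genes was -0.16. With the neighbour median subtracted from each ratio it was -0.20, with 60 lower and 18 higher.

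Related gene lists had median log2 ratios between -0.13 and 0.18. Of 5 ribosomal proteins with other names, 3 were lower and 2 higher in the mutant libraries (median -0.13). They included DAP3, a GTP-binding protein of the small subunit, at 49.5 in the mutant libraries, against 59.1 in the parental libraries (p-value 0.0380 in the authors' deposited table), and GADD45GIP1 at 43.8, against 57.1 (p-value 0.244 there). Among 26 factors of ribosome assembly and RNA modification the median was 0.06, and an unadjusted p under 0.05 in the authors' deposited table was held by 4 lower and 2 higher genes, against 8.63% and 5.17% of all measured genes. MTG2, a GTPase of large-subunit assembly, stood at 16.3 in the mutant libraries, against 11.6 in the parental libraries, and ERAL1, which binds small-subunit ribosomal RNA, at 29.7, against 41.8. The authors' deposited table gave p-values of 0.00508 and 0.0121.

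Among 16 translation factors and helpers the median log2 ratio was 0.04, with 6 lower and 10 higher in the mutant libraries. OXA1L, which inserts new proteins into the inner membrane, held 81.8 in the mutant libraries, against 55.7 in the parental libraries (p-value 0.000803 in the authors' deposited table). The elongation factor GFM1 held 8.36 in the mutant libraries, against 13.8 in the parental libraries (p-value 0.0623 in the authors' deposited table). The ribosomal RNAs that these proteins bind were MT-RNR1, at 1132 in the mutant libraries, against 1029 in the parental libraries, and MT-RNR2, at 5102, against 4482. Of the 13 protein genes of mitochondrial DNA, 2 were lower and 11 higher (median 0.18). MT-ND3 held 2655 in the mutant libraries, against 1998 in the parental libraries (p-value 0.0174 in the authors' deposited table), and MT-ND4L held 2431, against 2169 (p-value 0.0722 there). Cytosolic ribosomal proteins, 79 genes, had a median of 0.02, with 38 lower and 41 higher.
Among them RPS4X held 1630 in the mutant libraries, against 1155 in the parental libraries (p-value 0.00152 in the authors' deposited table), and RPS28 held 79.1, against 60.9 (p-value 0.00508 there).

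Of 12 transcription factors of mitochondrial biogenesis 11 were measured, with a median of -0.10. ESRRA, a nuclear receptor that drives genes of respiration, held 26.2 in the mutant libraries, against 13.5 in the parental libraries (p-value 0.0184 in the authors' deposited table). GABPB1, the partner of the ETS factor GABPA, held 10.3 in the mutant libraries, against 13.2 in the parental libraries (p-value 0.0447 in the authors' deposited table). For the factors of the letter patterns, named for that reason, GABPA was at 11.0 in the mutant libraries, against 11.9 in the parental libraries (p-value 0.891 in the authors' deposited table). YY1 stood at 34.7 in the mutant libraries, against 53.3 in the parental libraries, and NRF1 at 5.24, against 6.50, with p-values of 0.337 and 0.617 in the authors' deposited table. The transcripts that these p-values belong to did not all follow the gene sums. GABPA-202 held 8.98 in the mutant libraries, against 8.63 in the parental libraries, NRF1-205 held 2.75, against 2.47, and YY1-201 held 27.3, against 34.1.

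Overlapping genes limit some values. Of the 78 genes 47 overlap another gene, 37 of them on the other strand, and reads of such pairs may not be told apart, because the strand setting of the counting is not given in the sources used here. MRP pseudogenes, 75 in the table, summed to 19.1 in the mutant libraries, against 20.6 in the parental libraries.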

How the data were processed

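Per the labels' protocols, total RNA of HEK293 cells went into NEBNext Ultra RNA libraries. Per the submitters' processing notes, reads went through bcl2fastq, STAR and Partek on hg38; versions, annotation, filters and strand setting are not given in the sources used here. Each deposited group mean, held as a score, is a length-scaled abundance plus 1, and after 1 is taken off it sums to 496162 in both groups. The deposited ratio, fold change, p-value and adjusted p-value are also the authors' scores. The deposited signal named total counts is not a whole number of reads and was used to check the means. No single-library values were used, so the planned fits of single libraries gave way to a description of the authors' values.

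Abundance was summed per gene over transcripts, and genes with at least 1 in either group were kept. Positions, GC content and length came from GENCODE release 29, and promoter windows from RefSeq on GRCh38.p14. Reads per library were estimated from the recurring step size of abundance times length and cover counting only. Genes with values were those with an unadjusted p under 0.05, the 8 highest and 8 lowest ratios, the 5 most abundant, those at named ribosomal sites and those whose leading transcript differed, besides the 2 smallest p-values of each other list. 1 gene that the rule names is not reported here. The genes and lists were chosen with earlier results of these data known. The neighbour and chromosome views were added after values were seen. Scripts ran in Python 3.11.15 with pandas 2.3.3, numpy 2.4.6 and scipy 1.17.1. The Benjamini-Hochberg adjustment and the removal of GC and length trends were tested on simulated data, and the other steps were not.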

Additional observations from a re-analysis of the deposited data

How the results depend on the processing

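The lower median of the 78 genes kept its direction under every alternative run (another pseudocount, abundance minimum, leading transcript, centring, GC and length trends removed, protein-coding transcripts, neighbour medians subtracted, and without the distal chromosome 17 or the chromosome 8 genes), between -0.23 and -0.16, with 52 to 60 genes lower and 18 to 25 higher in the mutant libraries. Without the 4 distal chromosome 17 genes the log2 ratio of the summed abundance was -0.25, against -0.18 with them. At an unadjusted p under 0.01 in the authors' deposited table, 3 genes were lower and 0 higher, against 2.98% and 1.47% of measured genes. With the smallest p over a gene's transcripts, times their number, 10 genes were lower and 4 higher, in place of 14 and 1. The backgrounds for that measure were 5.27% and 5.28% of measured genes. At an adjusted p under 0.1 over genes 1 gene was called, and the share of all measured genes at that threshold was not taken. Once neighbour medians were subtracted, the median was -0.22 for the large subunit and -0.19 for the small, in place of -0.18 and -0.26. Genes with a bacterial counterpart by name then had a median of -0.22 and those without -0.19, in place of -0.25 and -0.16. Spearman's rho with GC content was 0.19 once neighbour medians were subtracted. That step turned 7 genes to the higher and 12 to the lower side, among them MRPS22 at 0.0452 in place of -0.20, MRPL12 at -0.10 in place of 0.60, MRPS7 at -0.09 in place of 0.54 and MRPL58 at -0.37 in place of 0.23. The cause was not tested. No paired analysis was possible because the values used were group means, and for the same reason leaving out single libraries, other normalizations and other test tools were not run. Depth limits single transcripts: the least covered leading transcript, of MRPL35, had an estimated 43.3 reads in the shallowest mutant library and 39.2 in the shallowest parental library.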

Other observations

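Minor transcripts of genes with lower sums sometimes lay higher in the mutant libraries. MRPS25-204 held 2.15 in the mutant libraries, against 0.391 in the parental libraries, and MRPS6-203 held 0.396, against 0.00367, with p-values of 0.0369 and 0.00105 in the authors' deposited table. In 6 of the 78 genes the gene sum and its most abundant transcript lay on opposite sides of 0, namely MRPL2, MRPL37, MRPL48, MRPS5, MRPS12 and MRPS34. Transcripts of these genes above exactly 0 in the mutant libraries alone numbered 8, against 3 in the parental libraries alone. Some group means in the data held a rounding remainder just above 0, which such a comparison takes as above 0. The numbers are therefore not counts of presence, and shares over all transcripts were not taken. The part of the greater depth of 1 mutant library was not tested. The ordering of the genes by level was alike in both groups, with Spearman's rho of 0.86 across the 78 genes.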
